A study of Mus musculus with 6 samples.

Results

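The genes described here encode the eukaryotic translation initiation factors (eIFs), the proteins that bring the ribosome to the start codon of a messenger RNA, together with the kinases and binding proteins that carry an Eif symbol and restrain them. They were chosen by symbol alone: every gene of the deposited table whose name starts with Eif and a digit from 1 to 6, except Eif4e1b and Eif4enif1. This gave 55 of the 25239 genes in the table. The symbol of 1 of them, Eif2c5, is an older Argonaute-type name rather than that of an initiation factor, and it had 0 counts in every library.

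The study compared germinal vesicle (GV) oocytes, fully grown eggs still arrested before meiosis resumes, after injection of water or of a mixture of phthalate metabolites, the products the body makes from phthalate plasticizers. All oocytes came from ovaries of CD-1 females, an outbred mouse stock, aged 4 to 6 weeks. In both groups oocytes still inside their cumulus cells were microinjected, then held in maturation medium with 10% fetal bovine serum, 200 mIU/mL follicle-stimulating hormone and 50 µg/mL sodium pyruvate, and collected at the GV stage. The labels give neither the members of the mixture nor its dose or the length of culture. Each group has 3 Smart-seq3 libraries, and Smart-seq3 copies polyadenylated RNA from single cells with an oligo(dT) primer and PCR. The labels name no animal or culture for any library, and their protocol can be read as a single oocyte per group. Each group was therefore treated as 1 sample, no difference was tested, and the libraries are called water 1 to 3 and phthalate 1 to 3.

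Initiation begins when eIF2 carries the initiator tRNA to the small ribosomal subunit, where eIF1, eIF1A and the large scaffold eIF3 are bound. The cap-binding protein eIF4E, the scaffold eIF4G and the helicase eIF4A load the messenger RNA, and eIF5 and eIF5B complete start codon recognition and joining of the large subunit. Growing oocytes store many messenger RNAs untranslated and use them after meiosis resumes, so control of these factors is a central part of oocyte maturation. Restraint comes from the eIF4E-binding proteins (the Eif4ebp genes), which block eIF4E from eIF4G, and from kinases that phosphorylate eIF2.

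Stored oocyte messages are often woken through the cytoplasmic polyadenylation element, a short U-rich signal near the end of the 3′ untranslated region, so the ends of the transcripts are shown first. GENCODE transcripts of GRCm38 were searched on the sense strand for TTTTAT or TTTTAAT in the last 100 bases. Of the 40 initiation factor genes with enough counts for a ratio, 3 held the element (7.5%), against 938 of 4530 genes with enough counts (20.7%). Over all 53 initiation factor genes with a protein-coding transcript end, 5 held it (9.43%), against 3466 of all 20419 genes with such an end (17.0%). The 3 sites are printed 5′ to 3′ on the strand of the gene, with the element in capitals.
Eif1ax: tggatgTTTTATgctgcacaaatatatgta
Eif3m: ctgaatTTTTATgaaaatgattttgttcgt
Eif4e3: aaTTTTATttttgaactttatttaaagcat
They lie at chrX:159389893-159389922 (plus strand), chr2:104999695-104999724 (minus strand) and chr6:99625205-99625234 (minus strand). The element ended 24 bases before the GENCODE transcript end in Eif1ax, 57 bases before it in Eif3m and 92 bases before it in Eif4e3. RefSeq places the 3′ end of Eif3m at the same base, but ends Eif1ax 307 bases earlier, upstream of the site, and Eif4e3 3256 bases further downstream. For 31 of the 40 genes the ends in both annotations lay within 100 bases of each other, so the counts above hold for the GENCODE ends only. No match means only that these letters are missing from this window of the annotated transcript.

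The general cleavage and polyadenylation signal, AATAAA or ATTAAA, was in the same window for 31 of the 40 genes (77.5%) and for 3688 of the 4530 genes (81.4%). The signals of the 3 genes with the most counts are printed with the signal in capitals, since oligo(dT) priming depends on the tail added after it.
Eif6: gtgccccaccccATTAAAggactgcctccc
Eif2s2: tataactgcgtgAATAAAgcaaggatcagt
Eif5b: ttgatgctcagaAATAAAagtttcaggaac
They lie at chr2:155819841-155819870 (minus strand), chr2:154871429-154871458 (minus strand) and chr1:38055547-38055576 (plus strand).

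The libraries held from 252267 to 300917 gene counts and from 9190 to 9627 genes with a count. Oocyte markers took from 4.18% to 4.71% of the counts, and 17 of the 18 listed markers were in the table. The 22 cumulus and granulosa markers had from 10 to 39 counts per library, with 75 in the water sum and 50 in the phthalate sum. Most of these were Nr5a2, with 8 to 32 counts per library. From 1 to 6 of the 22 had a count in a library, 6 of them in phthalate 2. Cyp19a1, Fshr, Inha, Inhba, Inhbb, Lhcgr, Has2, Kitl and Fst had at most 5 counts in any library, and the remaining markers of the list, Amh and Foxl2 among them, were at 0 everywhere. The part of these cells in the results below was not tested. Markers of theca, blood and immune cells had from 11 to 25 counts per library, mostly of Pecam1. Counts were mostly even numbers, as if both mates of each read pair had been counted, so the 95% intervals below were computed on counts divided by 2. They cover counting error only, and whether PCR copies were removed is not given in the sources used here.

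Of the 55 genes, 43 had a count in every library, 6 had none in any and 40 passed the filter on low counts. The 40 had a median of 38.8 counts per library, against 24.3 over the 4644 genes that passed. Levels of different genes are compared as CPM per kb, which is counts per 1000000 gene counts divided by the length of the longest annotated transcript. On that scale the median of the 40 in the water group was 63.8, and that of all genes that passed was 29.6. Whether counts rise in proportion to transcript length in these libraries was not tested, so levels per kb of long and short transcripts are compared with that limit.

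Among the initiation factor genes Eif6 had the highest level in each of the 6 libraries. Its protein binds the large ribosomal subunit and keeps it from joining the small subunit too early, and the gene lies at chr2:155819837-155826925. It had 445, 387 and 426 counts in the water libraries and 427, 534 and 446 in the phthalate libraries. Per kb this was 1101, 857 and 1001 CPM against 1128, 1207 and 1082. It stood above the next initiation factor gene by a factor of 2.20 to 3.31. The next gene was Eif1b in water 1, water 3 and phthalate 3, and Eif2s2 in the other libraries. Eif1b encodes a close relative of the start codon selection factor eIF1. It had 419, 305 and 426 CPM per kb in the water libraries and 360, 347 and 429 in the phthalate libraries, so the groups overlapped. By water mean Eif1b came next, with 383 CPM per kb. Eif2s2 followed with 350, and then Eif3g with 300 and Eif4a3 with 238. The water libraries of Eif2s2, at 326 to 369, lay inside the range of Eif3g, at 208 to 394, so these neighbours did not differ beyond their spread. The order depends on the length used. Per kb of coding sequence Eif6, Eif1b and Eif2s2 kept places 1 to 3, while Eif1 and Eif1ax replaced Eif3g and Eif4a3 in places 4 and 5.

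**Figure D1:**
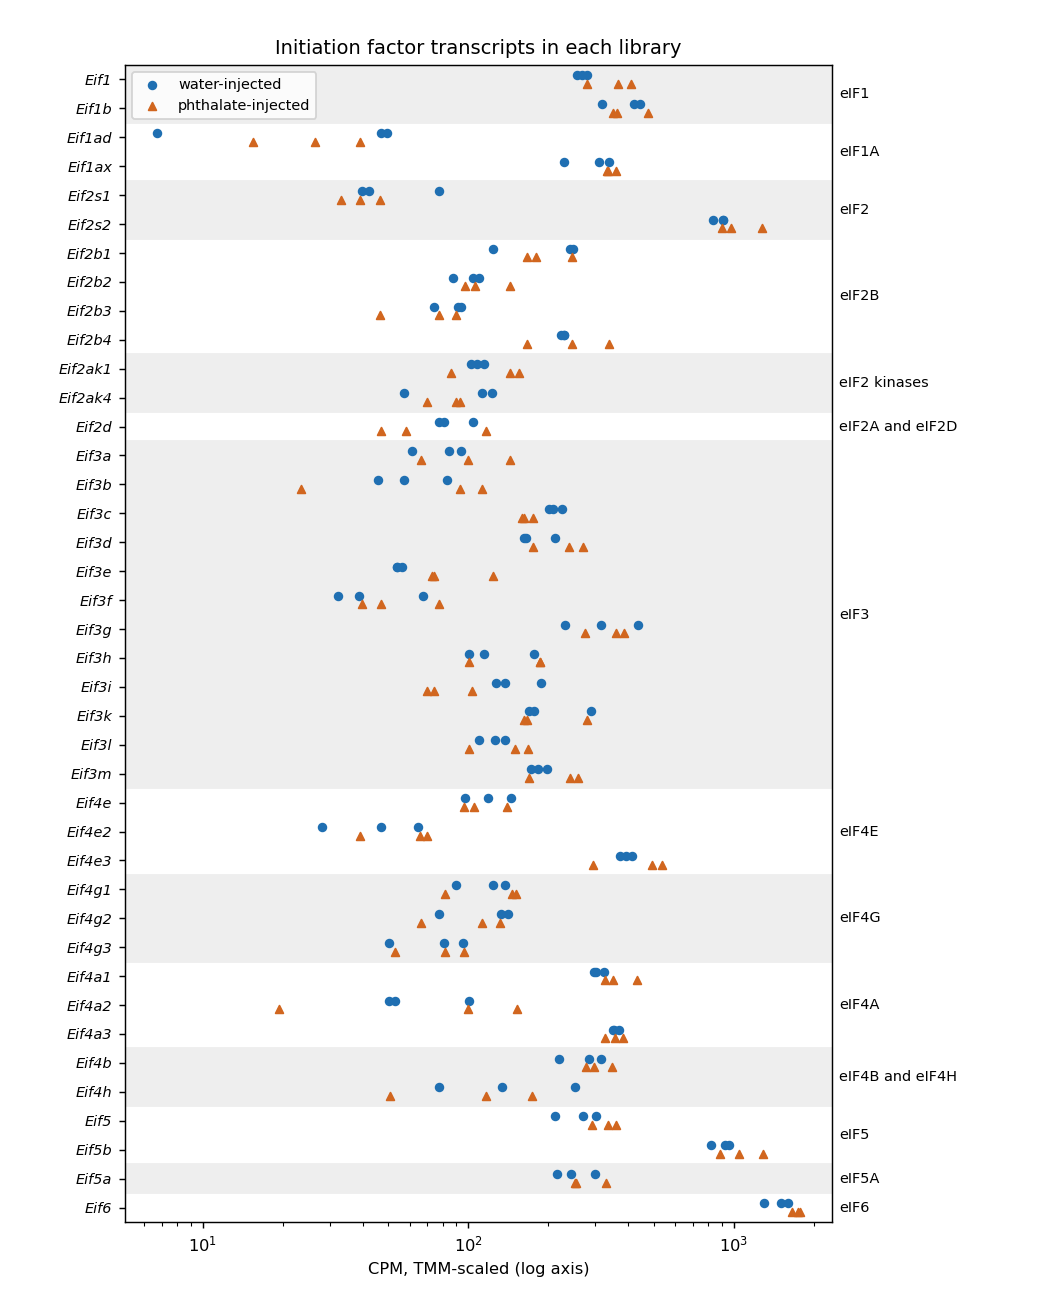
TMM-scaled CPM (log axis) of the 40 initiation factor genes that passed the filter, by complex, with 1 point per library: circles for water, triangles for phthalate. Eif6 lies farthest right, and in most genes the circles and triangles overlap.

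The 3 subunits of eIF2, which form a complex with equal parts of each, had very unequal transcript levels. Eif2s2, for the beta subunit, had 253, 249 and 257 counts in the water libraries and 329, 273 and 250 in the phthalate libraries. Eif2s1, for the alpha subunit that the stress kinases phosphorylate, had 11, 23 and 12 counts against 12, 10 and 10. Eif2s3x, for the GTP-binding gamma subunit, had 10, 15 and 2 against 4, 2 and 7. In CPM per kb the water means were 350 for Eif2s2, 15.6 for Eif2s1 and 8.59 for Eif2s3x. Within a library the level of Eif2s2 was 14.5 to 36.7 times that of Eif2s1 per kb of transcript, and 10.3 to 26.1 times per kb of coding sequence. The Y-linked copy Eif2s3y had 0 counts in all libraries, which come from females. How reads with several matching places were counted is not given in the sources used here. In Eif2s3x, 34.3% of the 150-base stretches of the longest transcript occur letter for letter in a transcript of another gene, and in Eif2s2 13.0%, while Eif2s1 has 0 such stretches.

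eIF3, the scaffold on the small ribosomal subunit, had 14 genes in the table, of which 12 had counts. Per kb, their water means ran from 15.7 for Eif3a to 300 for Eif3g, a factor of 19.1. Per kb of coding sequence the extremes were the same genes and the factor was 17.3. Eif3a encodes the largest subunit, around which the complex is built. It had 17, 28 and 24 counts in the water libraries and 37, 30 and 17 in the phthalate libraries. Eif3g, for an RNA-binding subunit, had 88, 69 and 123 counts against 71, 108 and 99. Within a library Eif3g stood 8.93 to 27.1 times above Eif3a per kb. Between these, Eif3k (water mean 233 CPM per kb), Eif3m (145) and Eif3i (135) lay in the upper part and Eif3f (18.4) and Eif3b (21.2) in the lower part. Eif3j1 and Eif3j2, related genes for a loosely bound subunit, had 0 counts throughout. For uniquely placed stretches this allows up to 7.02 CPM among water oocytes and 7.30 among phthalate oocytes (3 read pairs, or 6 counts, of each group's total). Of the 150-base stretches, 77.1% of those of Eif3j2 and 32.7% of those of Eif3j1 also occur in the other gene.

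**Figure D2:**
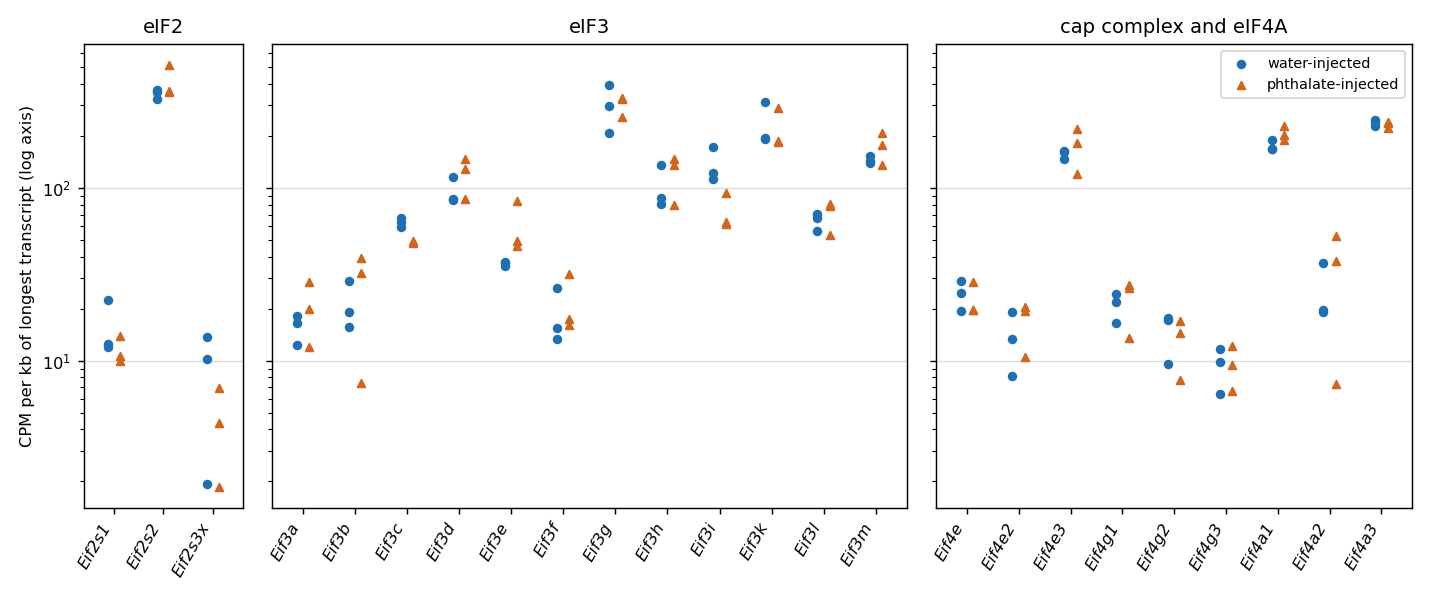
CPM per kb of longest transcript (log axis) in each library for subunits of eIF2, eIF3 and the cap complex with eIF4A; circles are water and triangles phthalate libraries. Eif2s2 lies more than 14 times above Eif2s1 in every library, and Eif4e3 above Eif4e and Eif4e2. Genes with 0 counts in all libraries are not drawn.

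Of the 3 cap-binding genes described here, Eif4e3 had the highest level per kb; the family member Eif4e1b lies outside the selection. It encodes a divergent family member that binds the cap without the usual aromatic sandwich. Its counts were 109, 111 and 117 in the water libraries and 138, 89 and 126 in the phthalate libraries. Eif4e, the canonical cap-binding protein, had 33, 29 and 41 counts against 36, 29 and 27. Eif4e2, a relative that represses translation by occupying the cap, had 18, 14 and 8 against 17, 21 and 10. Per kb Eif4e3 was 5.66 to 9.26 times the level of Eif4e within a library, and 2.99 to 4.89 times per kb of coding sequence. The groups overlapped in each of the 3 genes.

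The genes of the eIF4E-binding proteins were hardly detected. Eif4ebp1 had 4, 0 and 0 counts in the water libraries and 0 in each phthalate library. Eif4ebp2 had 3, 1 and 0 against 0, 0 and 2. Eif4ebp3 had 2, 6 and 0 against 1, 0 and 2, and 59.7% of the 150-base stretches of its transcript also occur in an annotated gene that overlaps it on the same strand. All 3 fell under the filter on low counts. Among the initiation factor genes of the water group Eif2ak2, at 0.574 CPM per kb, and Eif4ebp2, at 0.833, had the lowest levels above 0.

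The scaffolds of the cap complex had low levels per kb. Eif4g1 had 25, 41 and 35 counts in the water libraries and 39, 44 and 21 in the phthalate libraries. Eif4g2, whose protein lacks the eIF4E-binding part and serves cap-independent initiation, had 37, 23 and 40 against 34, 34 and 17. Eif4g3 had 14, 24 and 27 against 25, 16 and 21. Their water means were 20.8, 14.8 and 9.30 CPM per kb, and the groups overlapped in all 3. Their transcripts are long, and their mean counts per library were 34.2, 30.8 and 21.2, beside a median of 24.3 over all genes that passed. Phthalate 3 was the lowest of the 6 libraries for both Eif4g1 and Eif4g2.

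The helicase genes differed from each other more. Eif4a1, for the main helicase of initiation, had 90, 90 and 84 counts in the water libraries and 91, 99 and 111 in the phthalate libraries. Eif4a2, its close relative, had 14, 30 and 15 against 5, 30 and 39. The phthalate libraries thus spanned from 19.3 to 152 CPM for Eif4a2, the widest spread within a group among the 40 genes by the ratio of highest to lowest. Per kb of transcript Eif4a1 was 4.34 to 27.8 times Eif4a2 within a library, and 2.86 to 18.3 times per kb of coding sequence. Much of Eif4a1 is shared with a pseudogene (56.6% of 150-base stretches), so its level is uncertain. Eif4a3, which serves the exon junction complex rather than initiation, was steady, with 98, 104 and 105 counts against 92, 99 and 98. The related Eif4a3l1 had 0 counts.

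The helicase partners were Eif4b, with 79, 94 and 62 counts in the water libraries and 90, 90 and 71 in the phthalate libraries, and Eif4h, with 70, 23 and 38 against 45, 35 and 13. Eif4h varied more than 3-fold within each group, from 77.2 to 252 CPM in water and from 50.6 to 174 in phthalate. The groups overlapped in both genes.

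The scanning factors eIF1 and eIF1A keep the small subunit open until the start codon is found. Eif1 had 78, 80 and 73 counts in the water libraries and 106, 110 and 72 in the phthalate libraries. Eif1b had 117, 95 and 125 against 94, 106 and 122. Per kb of transcript Eif1b was 1.13 to 2.19 times Eif1 within a library, and per kb of coding sequence 0.887 to 1.71 times. Eif1ax, the X-linked eIF1A gene, had 86, 68 and 96 against 86, 108 and 86. Eif1a, its autosomal copy, had 0, 2 and 1 against 0 in each phthalate library. Eif1ad, for an eIF1A-like protein, had 13, 2 and 14 against 4, 8 and 10. Water 2 was thus the lowest library for Eif1ad, and all groups overlapped.

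Of the 4 kinases that phosphorylate eIF2, 2 passed the filter. Eif2ak1, the heme-sensing kinase, had 30, 34 and 29 counts in the water libraries and 40, 26 and 37 in the phthalate libraries. Eif2ak4, the amino-acid-sensing kinase also called GCN2, had 34, 17 and 32 against 24, 27 and 18. The kinase of the endoplasmic reticulum stress response, Eif2ak3, had 7, 1 and 2 against 2, 2 and 4. The kinase activated by double-stranded RNA, Eif2ak2, had 2 counts in water 1 and 0 elsewhere. For the first pair the log2 ratio of phthalate over water was 0.22 (95% interval -0.38 to 0.82) and -0.19 (-0.89 to 0.49), and the groups overlapped in both.

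eIF2B, the exchange factor that recharges eIF2 with GTP, has 5 subunit genes. Eif2b1 to Eif2b4 had summed counts of 176, 86, 74 and 195 over the water libraries and 163, 94, 59 and 204 over the phthalate libraries. Their log2 ratios ran from -0.25 to 0.20. Eif2b5, for the catalytic subunit, had only 2, 2 and 2 counts against 0, 2 and 0. Of the factors that deliver the initiator tRNA by other routes, Eif2d had 29, 24 and 22 counts against 15, 35 and 12, and Eif2a had 2, 4 and 4 against 6, 2 and 8.

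The late factors completed the set. Eif5b, the GTPase that joins the subunits (chr1:37998010-38055579), had 266, 275 and 233 counts in the water libraries and 332, 315 and 227 in the phthalate libraries. Eif5, which activates GTP hydrolysis on eIF2, had 75, 63 and 86 against 93, 101 and 75. Eif5a, whose protein carries the modified amino acid hypusine and helps the ribosome through difficult stretches, had 83, 64 and 69 against 65, 77 and 85. The copy, Eif5a2, had 0 counts in all libraries.

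Between the groups, few initiation factor genes differed by much. The log2 ratio of phthalate over water was computed from counts summed over the libraries of a group and scaled by TMM, a method that sets the bulk of genes to no change. A size of at least 1.5-fold was reached by 1 of the 40 genes upward (2.5%), Eif3e, and by 1 downward (2.5%), Eif3i. Over all 4644 genes the shares were 6.96% upward and 8.14% downward, 15.1% in all. Among the 35 initiation factor genes with a mean of at least 20 counts the same 2 genes passed, and over the 2784 such genes of the table the shares were 4.02% and 4.09%, 8.12% in all. Eif3e stood exactly at that limit, with a mean of 20 counts. The median log2 ratio of the 40 was 0.15, with 27 genes above 0 and 13 below. Over all 4644 genes the median was 0.0089, with 2377 genes above 0 and 2267 below. Without phthalate 1 the median of the 40 was 0.059 and without phthalate 3 it was 0.048.

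**Figure D3:**
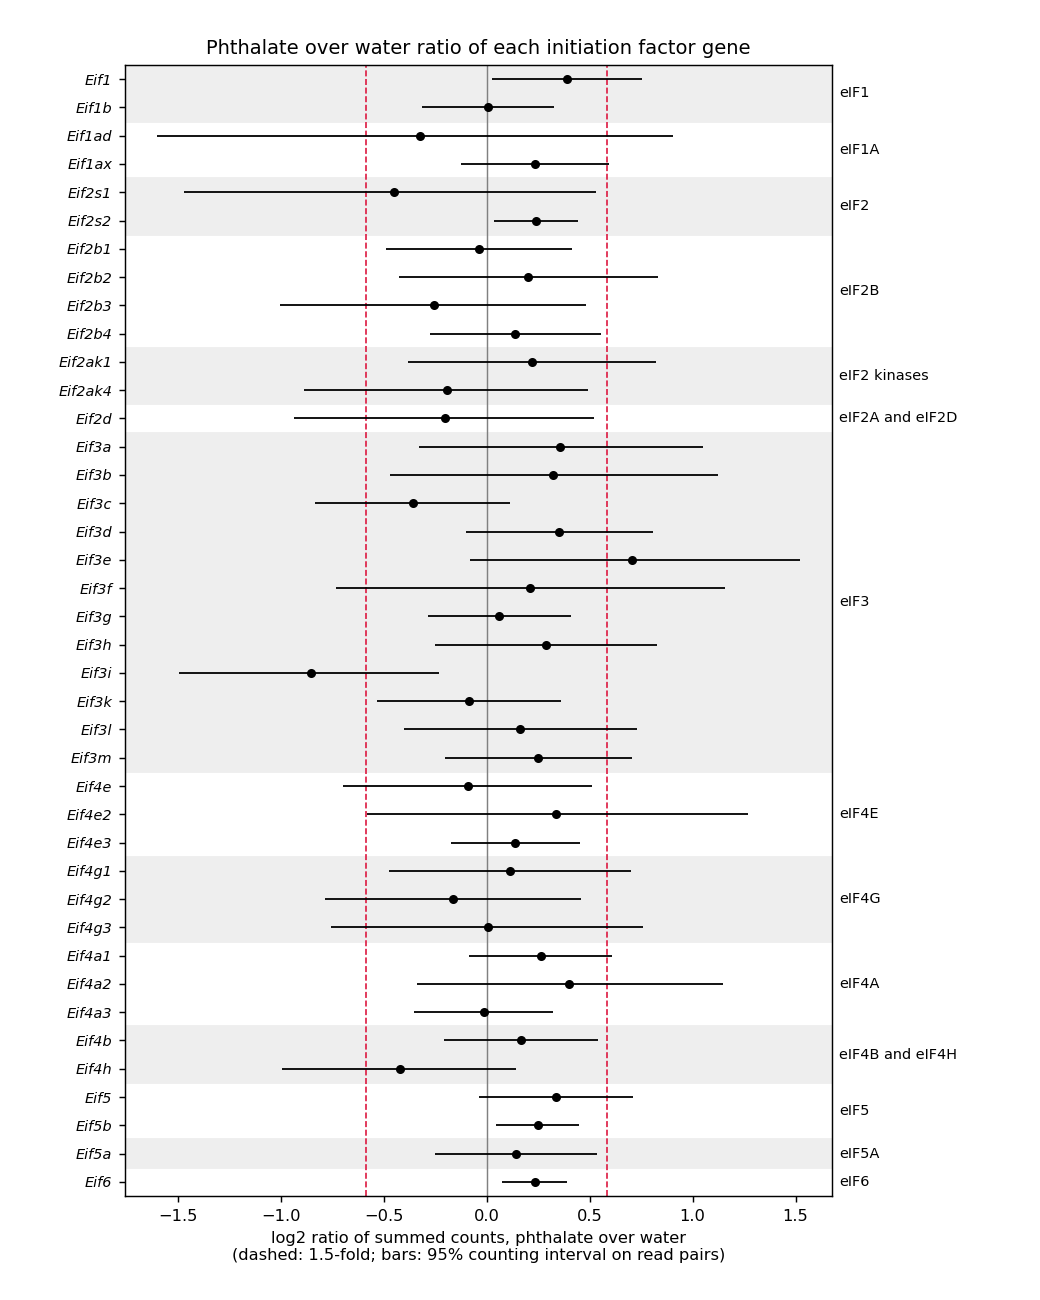
Log2 ratio of summed counts, phthalate over water, for the 40 genes by complex; bars are 95% counting intervals on read pairs and dashed lines mark 1.5-fold. Only the points of Eif3e (0.71) and Eif3i (-0.85) lie beyond the dashed lines.

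Eif3i encodes a propeller-shaped subunit of eIF3 and lies at chr4:129591974-129600648. It had 52, 41 and 36 counts in the water libraries and 18, 31 and 19 in the phthalate libraries. In TMM-scaled CPM this was 187, 138 and 127 against 69.6, 103 and 73.9, so every phthalate library lay below every water library. The log2 ratio was -0.85 (95% interval -1.50 to -0.23), which is 1.80-fold lower in the phthalate group after TMM scaling of the sums. Over 12 alternative settings it ran from -1.07 to -0.67.

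Eif3e, for another eIF3 subunit (chr15:43250040-43282736), differed in the opposite direction. It had 15, 16 and 16 counts in the water libraries and 32, 22 and 19 in the phthalate libraries. The 3 water libraries were nearly equal at 54.0, 53.7 and 56.4 CPM, and all phthalate libraries lay above them at 124, 72.9 and 73.9. The log2 ratio was 0.71 (-0.08 to 1.52), so its interval reached 0. On the counts as deposited the interval was 0.16 to 1.27. Without phthalate 1 it was 0.42, below 1.5-fold.

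Of the 12 eIF3 genes with a ratio, 9 lay above 0 and 3 below, with a median of 0.23. Outside eIF3 none of the 40 genes reached 1.5-fold with all libraries. With 1 library left out, Eif4a2 and Eif4e2 did so upward, as did Eif3b and Eif3f of eIF3, and Eif1ad, Eif2s1, Eif2d and Eif4h downward, in at least 1 setting each. Eif4a2 ran from 0.84 without phthalate 1 to -0.14 without phthalate 3. The log2 ratios of the cap-binding genes were -0.09 (-0.70 to 0.51) for Eif4e, 0.34 (-0.58 to 1.27) for Eif4e2 and 0.14 (-0.17 to 0.45) for Eif4e3. Those of the scaffolds Eif4g1, Eif4g2 and Eif4g3 were 0.11, -0.16 and 0.00. Eif2s1 had a ratio of -0.45 (-1.47 to 0.53), and each of these intervals reached 0.

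Groups that did not overlap were found for 3 genes with higher phthalate values, Eif3e, Eif4a1 and Eif6 (7.5% of the 40, against 5.15% of all 4644 genes), and for 2 with lower values, Eif3i and Eif3c (5.0%, against 5.00%). In either direction the share over all genes was 10.1%. With a mean of at least 20 counts the same counts of 3 (8.57%) and 2 (5.71%) of 35 genes stood against 5.42% and 4.81% of the 2784 genes, 10.2% in all. Eif3c, for a core eIF3 subunit (chr7:126546911-126566366), had 58, 60 and 64 counts in the water libraries and 41, 49 and 45 in the phthalate libraries, with a log2 ratio of -0.36 (-0.84 to 0.11). Eif4a1 (chr11:69666936-69672423) had a log2 ratio of 0.26 (-0.09 to 0.61). Its CPM values were 324, 302 and 296 against 352, 328 and 432, so the highest water and the lowest phthalate library were close. With unscaled library totals the groups of Eif6 overlapped, as the CPM per kb above show, and those of Eif3e, Eif4a1, Eif3i and Eif3c did not.

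The interval left out 0 for 5 of the 40 genes, Eif3i below and Eif6, Eif5b, Eif2s2 and Eif1 above, and for 9.19% of all 4644 genes. On the counts as deposited, where both mates count, it left out 0 for 11 of the 40, also Eif3c, Eif3d, Eif3e, Eif4a1, Eif4h and Eif5, and for 22.7% of all 4644. For Eif6 the log2 ratio after TMM scaling was 0.23 (0.08 to 0.39), from unscaled sums of 1258 counts over the water libraries and 1407 over the phthalate libraries. Eif5b had 0.25 (0.05 to 0.45), from 774 and 874 counts, and Eif2s2 (chr2:154871410-154892906) had 0.24 (0.04 to 0.44), from 759 and 852. After TMM scaling, the 3 genes with the most counts were each about 1.18 or 1.19 times higher in the phthalate group. Without phthalate 1 the log2 ratio was 0.080 for Eif2s2 and 0.10 for Eif5b, and without water 2 that of Eif6 was 0.15. The libraries of the groups did not overlap for Eif6 but did for Eif5b, where phthalate 3 lay within the water range, and for Eif2s2, where phthalate 2 did. Eif1 had a ratio of 0.39 (0.03 to 0.76), with phthalate 3 within the water range.

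**Figure D4:**
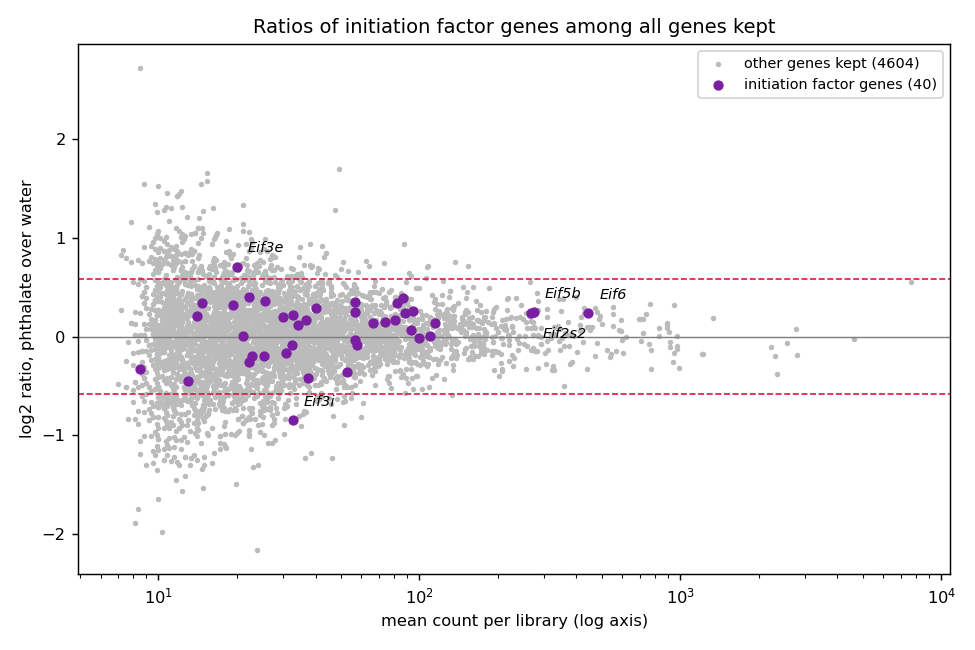
Log2 ratio, phthalate over water, against the mean count per library (log axis) for the 4644 genes that passed the filter; purple points are the 40 initiation factor genes and dashed lines mark 1.5-fold. Eif3e and Eif3i lie beyond the lines, and Eif6, Eif5b and Eif2s2 sit slightly above 0 at the right.

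All 55 genes together took 1.04%, 0.898% and 0.962% of the gene counts in the water libraries and 1.14%, 1.05% and 0.979% in the phthalate libraries. Phthalate 3 lay between the water libraries, so the groups overlapped. The summed shares were 0.964% (exact 95% interval on read pairs 0.935 to 0.994) and 1.05% (1.02 to 1.08), a difference of 0.0869 percentage points. Eif6, Eif5b and Eif2s2 held 35.1% of these counts. Without these 3 genes the difference was 0.0326 percentage points. Without phthalate 1 it was 0.0493, and without water 2 it was 0.0509. Rn45s, the ribosomal RNA precursor, took 2.02% to 2.35% of the water and 2.89% to 3.54% of the phthalate counts. With Rn45s left out of the totals the difference was 0.100 percentage points.

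The remaining translation machinery was described by 4 lists of 51 genes, of which 31 passed the filter. At least 1.5-fold was reached by 2 of them upward (6.45%) and 2 downward (6.45%), near the shares of all genes, and the median log2 ratio was 0.14. None of the 7 elongation factor genes and none of the 4 termination and recycling factor genes that passed the filter reached 1.5-fold, and their medians were 0.17 and 0.16. The 17 regulators of initiation outside the Eif symbols had 1 gene upward and 2 downward, with a median of 0.072. The 3 mitochondrial translation factors had 1 gene upward, with a median of 0.17. Single libraries set the sign of some of these medians: without phthalate 1 that of the mitochondrial factors was -0.35 and that of the termination factors -0.0064. That of the regulators was -0.016 without phthalate 2 and -0.056 without water 2. Signs also turned with all libraries kept: the median of the regulators was -0.064 with means of log2(CPM + 1). That of the mitochondrial factors was -0.080 without a gene filter. Groups did not overlap for 5 of the 31 genes upward (16.1%, against 5.15% of all 4644 genes) and 1 downward (3.23%, against 5.00%). Beside Abcf1, those upward were Eef1d (log2 ratio 0.50, interval 0.23 to 0.77), Gigyf2 (0.53, 0.07 to 0.99), Ddx3x (0.35, 0.04 to 0.67) and Abcf3 (0.20, -0.10 to 0.49). The gene downward was Paip2b (-0.57, -0.94 to -0.20). These 5 were named after their values were seen. Eef1d encodes an elongation factor subunit, Ddx3x a helicase and Paip2b an inhibitor of the poly(A)-binding protein. With a mean of at least 20 counts, the genes past 1.5-fold were Abcf1 and Dhx29. Abcf1, for an ATPase that binds eIF2 and ribosomes, had 46, 52 and 52 counts in the water libraries and 83, 91 and 61 in the phthalate libraries, a log2 ratio of 0.72 (0.29 to 1.16) with no overlap. Dhx29, for a helicase that helps scanning through structured leaders, had 16, 41 and 42 counts against 22, 6 and 23, a log2 ratio of -0.88 (-1.63 to -0.17) with overlap.

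Some counts may include a neighbour, since the use of strand in counting is not given in the sources used here. In GENCODE, exons of Eif5b overlap those of Rev1 on the opposite strand over 1643 bases, and Rev1 had 43 counts in all libraries together. Eif1ad overlaps Banf1 over 428 bases, with 619 counts of Banf1, far more than the 29 and 22 counts of Eif1ad itself. Eif2b4 overlaps Snx17 over 204 bases, with 102 counts of Snx17. Annotated antisense genes, whose counts were not used here, overlap Eif3d over 2151 of its 4968 exon bases and Eif6 over 138 of 2702.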

How the data were processed

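The deposited table gives raw counts by gene symbol for 25239 genes and 92 ERCC spike-in RNAs, without normalization by the authors. The submitters' processing notes name cutadapt, Trimmomatic, HISAT2, DESeq2 and the build mm10, without versions or roles. The counting tool, annotation, use of strand, molecular identifiers and reads with several matches are not given in the sources used here. ERCC counts stayed out of all totals.

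From the deposited counts, genes were kept with edgeR's filterByExpr (minimum count 10, minimum total 15), which left 4644. Counts were summed per group, because the labels name no animal or culture, and divided by totals scaled by TMM (edgeR 4.0.16, R 4.3.3). Ratios have exact Clopper-Pearson intervals of 2 counts given their sum, on counts divided by 2 (scipy 1.17.1). No ratio was formed where both sums were at most 3 counts. In every library from 68.0% to 71.1% of counts from 1 to 20 were even. On simulated data with 200 genes changed 2-fold among 4644, 96.2% of intervals held the true ratio. The simulated counts held counting noise only and were all even. They therefore cannot show how often the intervals hold for real libraries, which differed by more than counting noise. With 252267 to 300917 counts per library, ratios of genes under 20 counts are imprecise. Pairs of libraries of a group differed by more than counting noise (chi-square per degree of freedom 1.17 to 2.31 on read pairs), so none was counted as a copy.

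CPM per kb uses the longest GENCODE M21 transcript, which was found for 54 of 55 genes. Coordinates are from RefSeq for GRCm38.p6, which held all 55 symbols, and printed 3′ ends are from GENCODE M21 (GRCm38), from the principal or else the longest protein-coding transcript. Values in every library are given for initiation factor genes past 1.5-fold or without overlap at a mean count of at least 20, the extremes of level per kb, and the eIF2, cap complex, inhibitor, kinase and paralog genes. Genes of the other lists are named past 1.5-fold at that mean count. Other genes given by library (Eif3a, Eif3g, Eif4a3, Eif4b, Eif4h, Eif2a, Eif2d, Eif2b5, Eif5 and Eif5b) were chosen after their values were seen. The genes, lists and rules were chosen with earlier results of these data known. Alternatives were other scalings (unscaled totals, DESeq2 1.42.0 size factors), other filters, each library left out, Rn45s left out, log2(CPM + 1) means, near-identical copies left out, coding length and the 3 genes with most counts left out. The last 2 were chosen after seeing the data, as were the searches of 3′ ends and shared stretches.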

Additional observations from a re-analysis of the deposited data

How the results depend on the processing

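Unscaled totals, DESeq2 size factors and leaving out Rn45s changed no count of initiation factor genes past 1.5-fold. Genes of the other lists past 1.5-fold downward were 3 with unscaled totals and 3 with log2(CPM + 1) means, instead of 2. Over all 4644 genes, 8.70% and 9.67% passed downward in these 2 settings. The median of the initiation factor genes that entered each setting (33 to 47 genes) was above 0 in all 13 settings tried, from 0.048 to 0.16. Without a gene filter, 2 initiation factor genes passed 1.5-fold upward and 5 downward, and 6 and 8 genes of the other lists, since genes with few counts then entered. Of the 10319 genes with a ratio in that setting, 16.8% passed upward and 19.5% downward. With a mean count of at least 20, the other lists had 1 gene upward and 1 downward. Leaving out 1 library gave from 1 to 3 initiation factor genes upward (3 without water 2, 2 without water 1 or phthalate 3) and from 2 to 3 downward (3 without water 2). Over all 4644 genes these settings gave 7.60% to 9.41% upward and 8.46% to 10.5% downward. It gave from 4 to 11 genes without overlap upward (11 without phthalate 3, 7 without phthalate 2, 6 without phthalate 1 or water 1) and from 2 to 6 downward (6 without water 2). Fewer libraries make overlap rarer: over all 4644 genes the shares were 8.83% to 12.1% upward and 9.11% to 12.4% downward. The 11 genes without phthalate 3 were 27.5% of the 40, against 12.1% of all genes, and the 6 without water 2 were 15%, against 9.63%. It gave from 1 to 4 genes of the other lists upward (4 without phthalate 1, 1 without phthalate 3) and from 2 to 4 downward (4 without phthalate 1 or water 3), and share differences from 0.0493 to 0.123 percentage points. Without the 3 genes with most counts the share difference was 0.0326. Per coding length, 3 of the 5 highest genes were shared with the order per transcript length. Where no reason is given, the cause was not tested. Coding length from RefSeq proteins was not run. No paired analysis was possible because the labels name no animal or culture that shared numbers could refer to, and the results, with each group handled as 1 sample, come without a test. The depth leaves 9 detected genes under the filter, among them all Eif4ebp genes.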
